A study of Homo sapiens with 8 samples.

Results

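Metallothioneins and the genes of the zinc response were followed in a breast cancer cell line with and without restored BRCA1, before and after the drug COH29. The 10 genes listed were the metallothioneins MT2A, MT1X, MT1E, MT1F, MT1G, MT1H, MT1M and MT1A, the metal-sensing transcription factor MTF1 and the zinc exporter SLC30A1. Each gene was read from a probe set that the platform annotation pairs with that gene alone, and where a gene had several such probe sets the one with the highest mean over all arrays was taken. By this rule 9 of the 10 genes were measured, among 18417 genes tested in all. MT1A had no probe set of its own under the rule and is named only.

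COH29 is described by the submitters as an inhibitor of ribonucleotide reductase. HCC1937 is a breast cancer line whose BRCA1 is truncated, and HCC1937+BRCA1 is the same line with exogenous wild-type BRCA1. Each line was profiled without COH29 (control) and after 10 µM COH29 for 24 h, with 2 arrays in each of the 4 groups and 8 in all. All cells grew in RPMI 1640 with 10% FBS. The promoter driving the exogenous BRCA1, whether HCC1937+BRCA1 is 1 clone, and the vehicle given to the controls are not given in the sources used here. Nothing in the labels says whether both arrays of 1 group were grown as separate cultures, and every p-value given here reflects only the spread between such arrays, which may be technical.

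Metallothioneins are short proteins rich in cysteine that bind zinc and copper and buffer the free zinc of the cell. When free zinc or cadmium rises, MTF1 binds short metal response elements in the promoters of metallothionein genes and of SLC30A1 and raises their transcription. SLC30A1 sits in the plasma membrane and carries zinc out of the cytoplasm. Metallothionein genes also answer to glucocorticoids and to oxidative stress, and the human genes and pseudogenes of the type 1 family lie side by side with MT2A and are close in sequence.

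The promoters of 5 of the 10 listed genes were found in RefSeq (GRCh38.p14), each as 250 bases before to 50 bases after the gene's start. Those of MT1X, MT2A, MT1H and SLC30A1 are shown, on the strand of the gene and 5′ to 3′, because they hold matches to the metal response core. Capitals mark the core, searched as TGCACNC and TGCGCNC on both strands, with every match counted even where matches overlap each other or another motif. The windows are MT1X at chr16:56682220-56682519 (plus strand), MT2A at chr16:56608334-56608633 (plus strand), MT1H at chr16:56669564-56669863 (plus strand) and SLC30A1 at chr1:211579112-211579411 (minus strand).
MT1X: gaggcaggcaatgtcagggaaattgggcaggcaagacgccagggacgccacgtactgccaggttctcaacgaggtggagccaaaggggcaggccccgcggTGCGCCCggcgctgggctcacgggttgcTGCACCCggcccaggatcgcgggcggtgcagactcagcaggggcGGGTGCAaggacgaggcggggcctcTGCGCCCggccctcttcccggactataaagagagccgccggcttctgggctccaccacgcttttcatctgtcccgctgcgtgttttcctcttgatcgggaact
MT2A: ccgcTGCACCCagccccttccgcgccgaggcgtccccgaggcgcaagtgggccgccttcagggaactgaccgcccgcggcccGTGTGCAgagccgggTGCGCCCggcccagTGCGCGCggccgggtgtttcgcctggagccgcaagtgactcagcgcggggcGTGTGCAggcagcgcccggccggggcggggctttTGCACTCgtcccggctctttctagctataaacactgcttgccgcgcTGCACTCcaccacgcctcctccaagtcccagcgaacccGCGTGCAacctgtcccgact
MT1H: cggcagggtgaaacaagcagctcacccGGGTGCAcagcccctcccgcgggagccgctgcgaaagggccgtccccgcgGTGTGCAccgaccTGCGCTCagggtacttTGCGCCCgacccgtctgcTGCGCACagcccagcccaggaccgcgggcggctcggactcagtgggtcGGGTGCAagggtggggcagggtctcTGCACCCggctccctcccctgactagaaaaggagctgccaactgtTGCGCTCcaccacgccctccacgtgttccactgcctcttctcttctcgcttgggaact
SLC30A1: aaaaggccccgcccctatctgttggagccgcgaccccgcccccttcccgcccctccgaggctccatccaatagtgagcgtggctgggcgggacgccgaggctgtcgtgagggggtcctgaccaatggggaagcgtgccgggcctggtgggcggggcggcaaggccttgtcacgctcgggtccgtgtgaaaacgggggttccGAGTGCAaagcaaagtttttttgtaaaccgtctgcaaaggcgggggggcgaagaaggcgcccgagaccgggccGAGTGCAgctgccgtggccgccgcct

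The MT2A and MT1H windows each held 8 matches to the metal response core, a number reached by 0.0199% of the 35116 RefSeq promoters of this length. The MT1X window held 4, which 0.601% of promoters reached, and these lay 46 to 150 bases before the start. The SLC30A1 window held 2, which 8.6% of promoters reached. Of the matches, 1 in the SLC30A1 window and 1 in the MT2A window lay after the start. The window of MTF1 (chr1:37859543-37859842, minus strand) held 0 where 29.6% of promoters held at least 1. The antioxidant response core, searched as TGACNNNGC on both strands, was found 1 time each in the MT1X, MT2A and SLC30A1 windows and in 13.3% of all promoters. The hypoxia response core ACGTG, searched on both strands, was matched 2 times for MT1H and 1 time for MT1X. Both MT1H matches are 1 palindrome, CACGTG, read on either strand, and it lies after the start. At least 1 match was found in 21.4% of all promoters and at least 2 in 8.82%. A match is a description of these letters, and binding was not measured.

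Values are deposited log2 intensities, on which a difference of 1 is a doubling of signal. Levels of different probe sets cannot be set against each other as amounts of RNA. Percentiles of mean level are therefore only a rough guide to bright and dim signal. The medians of the arrays lay between 7.10 and 7.24. Of 5 breast epithelial markers, EPCAM, CDH1, KRT8 and KRT18 lay at percentiles 98.3 to 99.8 of all genes by mean level, and KRT19 at 52.5. Of 5 markers of other cells, the leukocyte marker PTPRC lay at percentile 3.0, the collagen genes COL1A2 and COL1A1 at 28.7 and 50.5, the endothelial marker PECAM1 at 49.0 and VIM at 64.5. PECAM1 was lower with COH29 in both lines (-1.95 and -1.48), and its part in the results with COH29 was not tested. The 2 lines differed in further marker genes. Without COH29, VIM, a mesenchymal filament gene, was 3.56 higher in HCC1937+BRCA1, and PECAM1 (-1.19) and KRT19 (-0.82) were lower there. The basal-like markers did not move together: the keratin KRT5 was lower (-1.70), EGFR was higher (0.51) and KRT14 differed by -0.15 (limma adjusted p = 0.33). BRCA1 itself differed by -0.08 ± 0.10 (SE) between the lines without COH29 (adjusted p = 0.62), so its probe set does not show the exogenous copy. Whether other differences between the lines have a part in the line comparisons that follow was not tested. In such bulk samples, fewer cells of a type and less RNA per cell cannot be told apart.

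With COH29, 3 of the 7 measured metallothioneins were called higher in HCC1937 and 6 of the 7 in HCC1937+BRCA1. The change was above 0, called or not, for 6 of the 7 in HCC1937 and for all 7 in HCC1937+BRCA1. These genes are close in sequence and a probe set can capture the RNA of a relative, so the signs are not separate observations. In HCC1937 the test called 4 of the 9 measured genes higher and 0 lower: MT1X, MT1E, MT1H and SLC30A1. In HCC1937+BRCA1 it called 7 higher and 0 lower: MT1X, MT2A, MT1F, MT1G, MT1E, MT1M and SLC30A1. A call is an adjusted p under 0.05 in limma's moderated test, with Benjamini-Hochberg adjustment over all 18417 genes. Over all genes tested, the share called higher in HCC1937 was 10.2% and the share called lower 12.5%. In HCC1937+BRCA1 these shares were 13.6% and 20.1%. The median change of the 9 genes was 0.31 in HCC1937 and 0.94 in HCC1937+BRCA1, against 0.04 over all genes in either line. The count in HCC1937 fell to 2 without HCC1937 control replicate 2, without COH29 replicate 1 or without COH29 replicate 2 of that line.

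**Figure D1:**
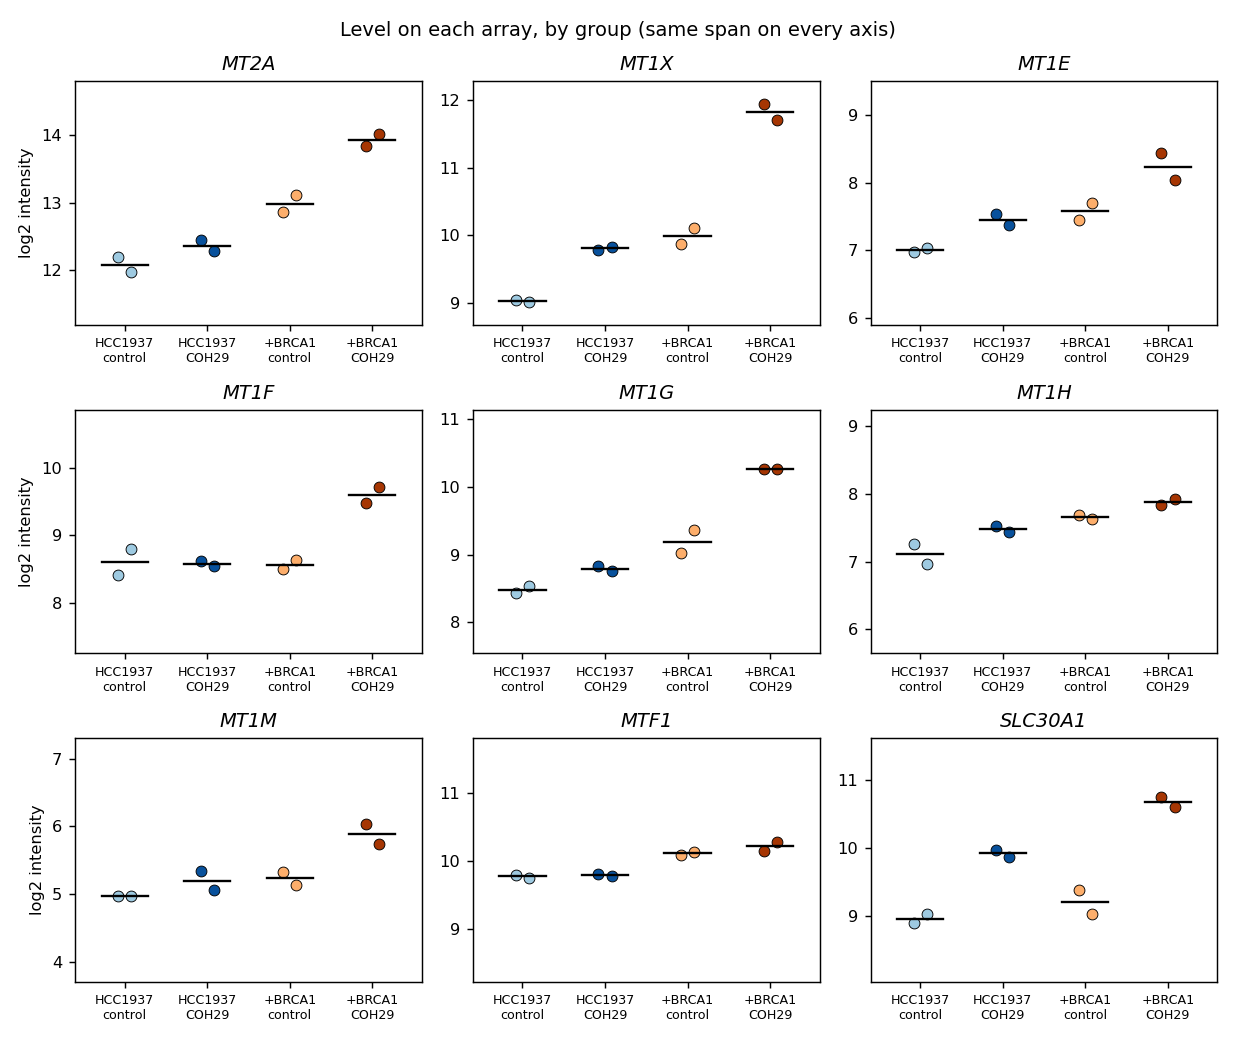
Log2 intensity (vertical axis) of each of the 9 measured genes on the 8 arrays, by group, with points for arrays and bars for group means ("+BRCA1" stands for HCC1937+BRCA1). MT1X climbs from 9.03 in the HCC1937 controls to 11.82 in treated HCC1937+BRCA1, while MTF1 stays between 9.75 and 10.28.

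MT1X is a type 1 metallothionein expressed in many tissues. Its log2 intensity was 9.04 and 9.02 in the HCC1937 controls, 9.79 and 9.83 in HCC1937 with COH29, 9.87 and 10.11 in the HCC1937+BRCA1 controls and 11.94 and 11.70 in HCC1937+BRCA1 with COH29. The treated arrays lay above the untreated ones of the same line without overlap. COH29 raised MT1X by 0.78 ± 0.11 (SE, n = 2 against 2) in HCC1937, which is 1.71-fold (limma, adjusted p = 0.00123). In HCC1937+BRCA1 it rose by 1.83 ± 0.11, which is 3.57-fold (adjusted p = 9.47e-06). Untreated HCC1937+BRCA1 and treated HCC1937 were neighbours in the order of levels, with means of 9.99 ± 0.17 and 9.81 ± 0.03 (SD, n = 2) that lay about as far apart as the spread of the former.

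MT2A, the main type 2 metallothionein of human cells, was at percentile 99.4 of all genes by mean level. It read 12.19 and 11.98 in the HCC1937 controls and 12.44 and 12.29 in HCC1937 with COH29. It read 12.86 and 13.11 in the HCC1937+BRCA1 controls and 13.83 and 14.01 with COH29. The 4 groups did not overlap and followed the same order as those of MT1X, apart from the larger step between treated HCC1937 and untreated HCC1937+BRCA1. MT2A rose 1.91-fold in HCC1937+BRCA1 (log2 change 0.94 ± 0.12 SE, limma adjusted p = 4.70e-04). In HCC1937 its change was 0.28 ± 0.12 (adjusted p = 0.148) and missed the threshold, with a 95% interval reaching up to 0.55. The highest value of any probe set on these arrays was 14.65, and whether the scale is compressed near that value was not tested.

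MT1F and MT1G are further type 1 metallothioneins. MT1F read 8.41 and 8.80 in the HCC1937 controls, 8.62 and 8.55 with COH29 there, 8.50 and 8.63 in the HCC1937+BRCA1 controls and 9.48 and 9.71 with COH29. The first 3 of these groups overlapped, and the treated HCC1937+BRCA1 arrays stood above all of them. Its change was -0.02 ± 0.14 in HCC1937 (adjusted p = 0.942; 95% interval -0.33 to 0.29) and 1.03 ± 0.14 in HCC1937+BRCA1, a 2.04-fold rise (adjusted p = 4.77e-04). MT1G read 8.43 and 8.54, then 8.83 and 8.76 with COH29, in HCC1937. In HCC1937+BRCA1 it read 9.02 and 9.37 without the drug and 10.26 on both treated arrays. All 4 groups of MT1G were separate. Its rise in HCC1937+BRCA1 was 2.08-fold (1.06 ± 0.12, adjusted p = 1.85e-04), and its change of 0.31 ± 0.12 in HCC1937 missed the threshold (adjusted p = 0.09). That call in HCC1937 was gained without HCC1937+BRCA1 control replicate 1 or 2 (adjusted p = 0.0389 without either).

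MT1E, MT1H and MT1M are the remaining type 1 genes measured. MT1E read 6.97 and 7.03 in the HCC1937 controls, 7.53 and 7.37 with COH29, 7.45 and 7.70 in the HCC1937+BRCA1 controls and 8.43 and 8.04 with COH29. Treated HCC1937 and untreated HCC1937+BRCA1 overlapped. The rise of MT1E was 0.45 ± 0.14 in the parent line (adjusted p = 0.0465) and 0.66 ± 0.14 in HCC1937+BRCA1 (adjusted p = 0.00627). The first call was lost without any 1 of the 4 HCC1937 arrays (adjusted p from 0.0677 to 0.213), and the second without HCC1937+BRCA1 control replicate 1 (0.0507). MT1H read 7.26 and 6.97, then 7.52 and 7.44 with COH29, in HCC1937, and 7.68 and 7.63, then 7.83 and 7.92, in HCC1937+BRCA1. Its 4 groups were separate and close together. MT1H rose by 0.37 ± 0.11 in HCC1937 (adjusted p = 0.0355), and its change of 0.21 ± 0.11 in HCC1937+BRCA1 missed the threshold (adjusted p = 0.151). Its call in HCC1937 was lost without control replicate 2 (0.244), COH29 replicate 1 (0.152) or COH29 replicate 2 (0.0673) of that line. MT1M was dim, at percentile 13.1, with 4.97 on both HCC1937 controls, 5.34 and 5.06 with COH29, 5.33 and 5.14 in the HCC1937+BRCA1 controls and 6.04 and 5.74 with COH29. Treated HCC1937 and untreated HCC1937+BRCA1 overlapped, and both treated HCC1937+BRCA1 arrays lay above all others. The rise of MT1M in HCC1937+BRCA1 was 0.65 ± 0.13 (adjusted p = 0.00474), and its change in HCC1937 was 0.23 ± 0.13 (adjusted p = 0.255).

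MTF1, the zinc-sensing factor, did not pass the test for COH29 in either line. It read 9.79 and 9.75 in the HCC1937 controls, 9.80 and 9.77 with COH29, 10.09 and 10.13 in the HCC1937+BRCA1 controls and 10.15 and 10.28 with COH29. Its change with COH29 was 0.01 ± 0.08 in HCC1937 (adjusted p = 0.934; 95% interval -0.18 to 0.20) and 0.10 ± 0.08 in HCC1937+BRCA1 (adjusted p = 0.375; -0.09 to 0.29). The activity of MTF1 is set largely at the protein level, which arrays do not measure. SLC30A1, the exporter, read 8.89 and 9.02 in the HCC1937 controls and 9.97 and 9.87 with COH29, then 9.38 and 9.03 in the HCC1937+BRCA1 controls and 10.76 and 10.61 with COH29. The treated arrays of each line stood above the untreated arrays of both. It rose 1.95-fold in HCC1937 (0.96 ± 0.12, adjusted p = 7.88e-04) and 2.79-fold in HCC1937+BRCA1 (1.48 ± 0.12, adjusted p = 4.49e-05).

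**Figure D2:**
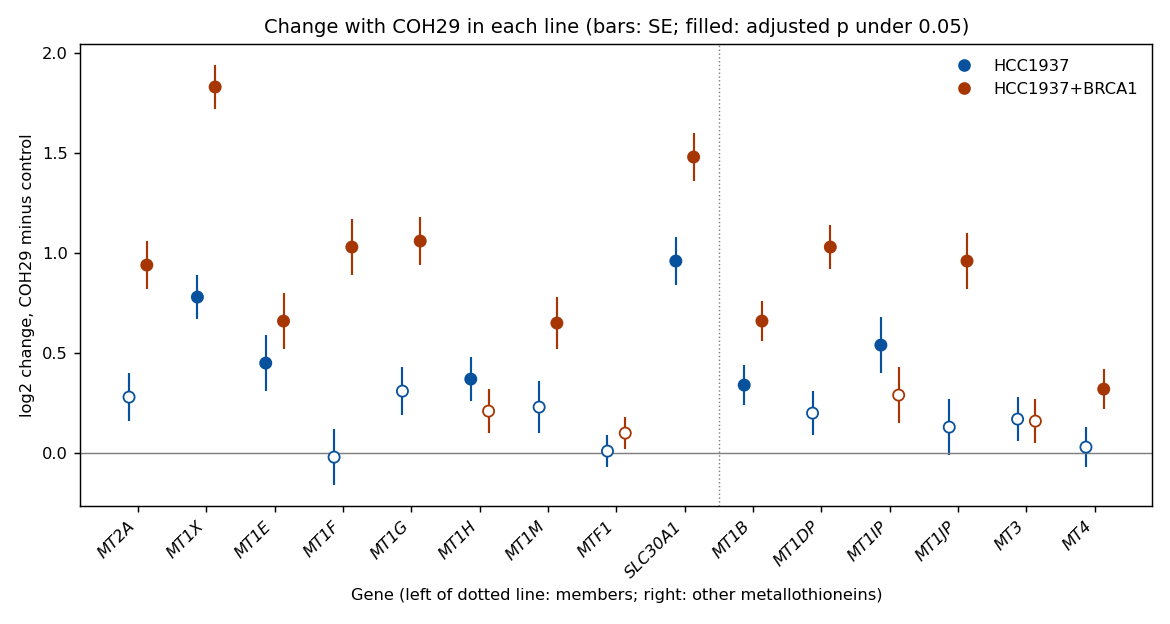
Log2 change with COH29 in HCC1937 and in HCC1937+BRCA1 (points; bars are SE of the limma fit, and filled points passed adjusted p under 0.05) for the 9 measured genes, left of the dotted line, and 6 other metallothioneins, right of it. MT1F lies at -0.02 in HCC1937 and at 1.03 in HCC1937+BRCA1, whereas SLC30A1 is at 0.96 and 1.48.

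The difference between the COH29 effects of the lines (HCC1937+BRCA1 minus HCC1937) was tested directly. It passed for 2 of the 9 genes, MT1X and MT1F, both higher in HCC1937+BRCA1, where 0.543% of all genes were called higher and 0.413% lower. For MT1X the difference was 1.06 ± 0.16 (adjusted p = 0.0215; 95% interval 0.71 to 1.41), and for MT1F 1.05 ± 0.19 (adjusted p = 0.0473; 0.61 to 1.48). It was 0.75 ± 0.17 for MT1G (adjusted p = 0.0868; 0.37 to 1.12), 0.66 ± 0.17 for MT2A (adjusted p = 0.139; 0.27 to 1.05) and 0.52 ± 0.18 for SLC30A1 (adjusted p = 0.252; 0.12 to 0.91). These intervals are not adjusted for the number of genes. The difference was 0.42 ± 0.19 for MT1M, 0.20 ± 0.20 for MT1E, 0.09 ± 0.12 for MTF1 and -0.16 ± 0.15 for MT1H, none past the threshold (adjusted p from 0.377 to 0.823). The call of MT1X was lost without any 1 array other than HCC1937+BRCA1 control replicate 2 and COH29 replicate 2 (adjusted p from 0.0634 to 0.0927), with the difference between 0.94 and 1.18. MT1G passed without HCC1937+BRCA1 control replicate 2 (0.92, adjusted p = 0.0483). The call of MT1F was lost without any 1 array other than HCC1937 control replicate 1 (adjusted p from 0.0713 to 0.165), with the difference between 0.85 and 1.24.

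Without COH29, metallothionein signal was already higher in HCC1937+BRCA1 than in HCC1937. Of the 9 genes 6 passed as higher and 0 as lower, against 16.4% higher and 14.8% lower of all genes. MT1X was 1.94-fold higher (0.95 ± 0.11, adjusted p = 2.00e-04), MT2A 1.86-fold (0.90 ± 0.12, adjusted p = 5.43e-04) and MT1G 1.64-fold (0.71 ± 0.12, adjusted p = 0.00158). MT1H (0.54), MT1E (0.58) and MTF1 (0.34 ± 0.08, adjusted p = 0.0131) were also higher. The call of MT1E was lost without HCC1937 control replicate 1 (0.0699) or HCC1937+BRCA1 control replicate 2 (0.0837). The call of MTF1 was lost without HCC1937 control replicate 1 (0.0561) or 2 (0.0828) or HCC1937+BRCA1 control replicate 2 (0.0719). SLC30A1 differed by 0.25 ± 0.12 (adjusted p = 0.176) and passed without HCC1937+BRCA1 control replicate 2 (0.0374). MT1M differed by 0.26 (adjusted p = 0.185) and MT1F by -0.04 (adjusted p = 0.875).

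With COH29, all 9 measured genes were called higher in HCC1937+BRCA1 than in HCC1937, where 14.2% of all genes were called higher and 17.4% lower. This comparison shares arrays with those above and is given by its own values. MT1X was 4.03-fold higher (2.01 ± 0.11, adjusted p = 2.81e-06), MT2A 2.94-fold (adjusted p = 2.20e-05), MT1G 2.75-fold (adjusted p = 2.46e-05) and MT1F 2.01-fold (adjusted p = 4.96e-04). SLC30A1 was 0.77 ± 0.12 higher (adjusted p = 0.00144), and MTF1 differed by 0.43 ± 0.08 (adjusted p = 0.00395). MT1H differed least, by 0.39 ± 0.11 (adjusted p = 0.0204), and lost its call without replicate 2 of the treated HCC1937 (0.0974) or of the treated HCC1937+BRCA1 (0.106).

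Close sequence among metallothioneins means that a probe set can capture the RNA of a relative. The platform annotation pairs 18 probe sets with a metallothionein gene or pseudogene, 17 of them with 1 gene. MT2A had 3, and their changes were 0.28 to 0.40 in HCC1937 and 0.94 to 1.06 in HCC1937+BRCA1. After centring, the 3 MT2A probe sets differed by at most 0.17 on any array. Signal also moved at relatives whose transcripts are usually scarce. Of a list of 7 other metallothionein genes and pseudogenes, 6 were measured. MT1IP and MT1B (2) were called higher in HCC1937, and MT1DP, MT1JP, MT1B and MT4 (4) in HCC1937+BRCA1, with 0 lower. Over all genes 10.2% and 13.6% were called higher in these lines, and 12.5% and 20.1% lower. MT1DP rose by 1.03 ± 0.11 in HCC1937+BRCA1 (adjusted p = 1.77e-04) and MT1JP by 0.96 ± 0.14 (adjusted p = 6.88e-04), both annotated as pseudogenes. MT4, known from stratified epithelium, rose by 0.32 ± 0.10 there (adjusted p = 0.0359), a call lost without any 1 of that line's 4 arrays. MT3, known from brain, changed by 0.17 and 0.16 in the respective lines and passed in neither. The count in HCC1937 was 0 or 1 without any 1 of the 4 arrays of that line. A probe set shared by NUTF2 and the pseudogene MT1L, which stayed out of the tests, had a change of 0.49 in HCC1937 and 0.88 in HCC1937+BRCA1. No probe sequences were used here, so how much of each signal comes from relatives was not tested, and single metallothioneins are to be read as uncertain.

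The 13 measured metallothionein genes and pseudogenes of chromosome 16 lie next to each other with no other measured gene between them, in the order of RefSeq. With COH29, 5 of the 13 passed as higher in HCC1937, 10 of the 13 in HCC1937+BRCA1, and 0 as lower in either. The 5 became 1 to 3 without any 1 of the HCC1937 arrays. Of the 5 nearest measured genes on each side, 10 in all, 2 were called higher (OGFOD1 and HERPUD1) and 2 lower (NUDT21 and NUP93) in each line. Over all genes the shares were 10.2% higher and 12.5% lower in HCC1937, then 13.6% and 20.1% in HCC1937+BRCA1, so the flanking counts are not read as a result. The 2 higher in HCC1937+BRCA1 became 1 without control replicate 1, control replicate 2 or COH29 replicate 2 of that line. The median change of the 13 was 0.28 in HCC1937 and 0.66 in HCC1937+BRCA1, and that of the 10 flanking genes 0.10 and 0.15. HERPUD1, a gene of the endoplasmic reticulum stress response, was the flanking gene with the largest rise, by 1.60 ± 0.09 and 2.36 ± 0.09. NUDT21, a factor of mRNA 3′ end processing, and NUP93, a nuclear pore protein, fell in both lines, in HCC1937+BRCA1 by 0.67 and 0.68 on the log2 scale. Between the untreated lines 9 of the 13 were called higher in HCC1937+BRCA1, and of the flanking genes 1, BBS2. In that comparison 16.4% of all genes were called higher and 14.8% lower, so the flanking 1 is not read as a result.

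**Figure D3:**
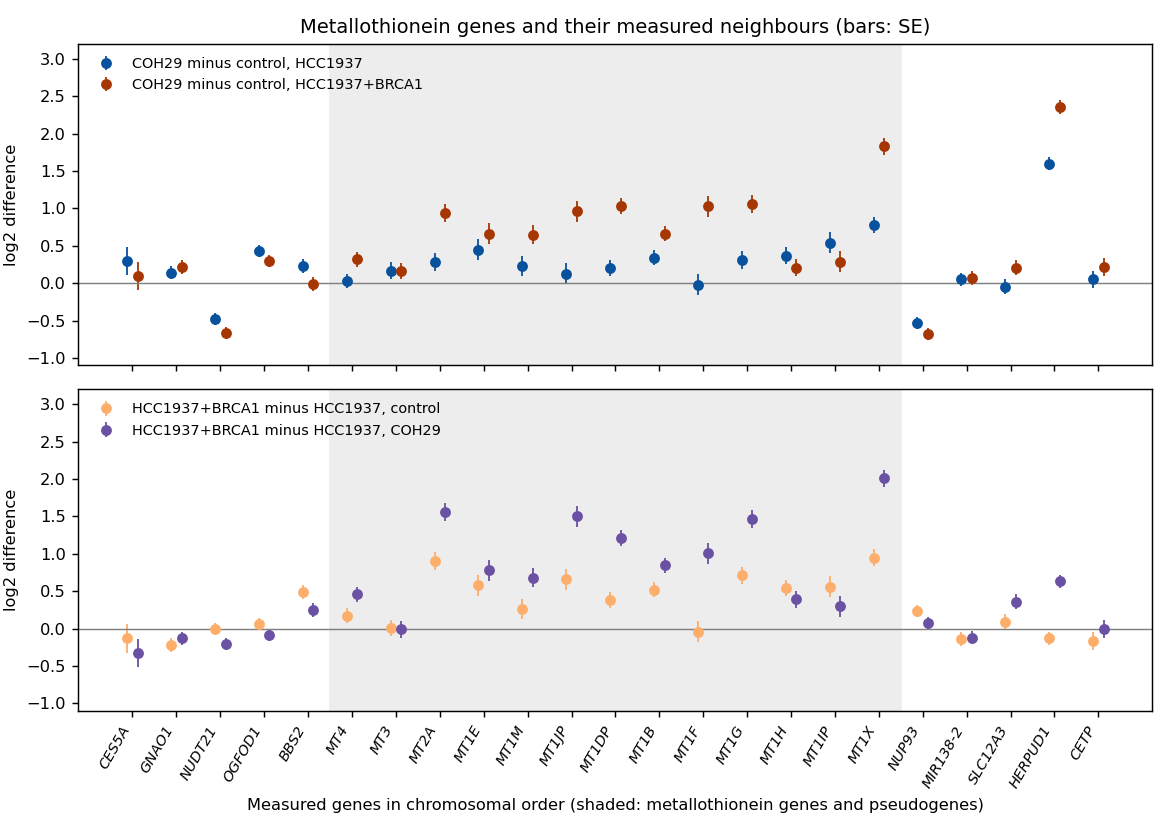
Log2 change with COH29 in each line (upper panel) and difference between the lines (lower panel), with SE bars, for the 13 metallothionein genes and pseudogenes and the 5 measured genes on each side, in chromosome order (horizontal axis, order only, not distance). The metallothioneins lie above 0 in HCC1937+BRCA1 and the flanking genes on either side of 0, with HERPUD1 at 2.36.

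Other zinc transporters were taken from a list of the SLC30 family, which moves zinc out of the cytoplasm or into vesicles, and the SLC39 family, which brings it in. The first list held 10 genes beside SLC30A1: the other SLC30 genes and TMEM163, a zinc transporter of membranes. SLC30A4, which loads zinc into vesicles, rose in both lines, with a change of 0.53 ± 0.09 in HCC1937 (adjusted p = 0.00282). For HCC1937+BRCA1 the change was 0.35 ± 0.09 (adjusted p = 0.0149), a call lost without control replicate 1, control replicate 2 or COH29 replicate 2 of that line. SLC30A6 fell in HCC1937+BRCA1 (-0.53 ± 0.08, adjusted p = 9.53e-04). In HCC1937, 1 of these 10 was called higher (SLC30A4) and 1 lower (SLC30A9). In HCC1937+BRCA1 the calls were 3 higher (SLC30A2, SLC30A3 and SLC30A4) and 2 lower (SLC30A6 and SLC30A9). Set against the shares over all genes (10.2% higher and 12.5% lower in HCC1937, then 13.6% and 20.1%), these counts of 10 are near the background, apart from the 3. The 3 became 1 without HCC1937+BRCA1 control replicate 1, control replicate 2 or COH29 replicate 2. The 1 lower in HCC1937 became 0 without any 1 array of that line, and the 2 lower in HCC1937+BRCA1 became 1 without HCC1937 control replicate 1 or 2 or HCC1937+BRCA1 control replicate 1, COH29 replicate 1 or COH29 replicate 2.

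Of the 14 importers, 1 was called higher (SLC39A14) and 3 lower (SLC39A10, SLC39A1 and SLC39A8) in each line. With 10.2% higher and 12.5% lower over all genes in HCC1937, and 13.6% and 20.1% in HCC1937+BRCA1, these counts are near the background. SLC39A14, an importer of zinc and iron, read 10.22 and 9.99 in the HCC1937 controls and 10.89 on both treated arrays, then 10.28 and 10.37 in the HCC1937+BRCA1 controls and 11.04 and 11.25 with COH29. It rose by 0.78 ± 0.11 and 0.82 ± 0.11 (adjusted p = 0.0011 and 5.05e-04). SLC39A10, a plasma membrane importer, fell from 10.94 and 10.81 to 9.90 and 9.95 in HCC1937 and from 11.01 and 10.82 to 10.25 and 10.26 in HCC1937+BRCA1. These changes were -0.95 ± 0.09 and -0.66 ± 0.09 (adjusted p = 2.00e-04 and 6.98e-04). SLC39A10 and the exporter SLC30A1 thus moved in opposite directions in both lines. SLC39A8 also fell, by 0.30 and 0.36 on the log2 scale, calls lost without any 1 array of HCC1937 and without HCC1937+BRCA1 control replicate 2, and stood lower in HCC1937+BRCA1 than in HCC1937 without COH29 (-1.44 ± 0.08, adjusted p = 2.71e-06). SLC39A1 changed by -0.36 ± 0.08 and -0.42 ± 0.08 (adjusted p = 0.0145 and 0.00457). The 3 called lower in HCC1937 became 1 without control replicate 1, control replicate 2 or COH29 replicate 1 of that line.

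**Figure D4:**
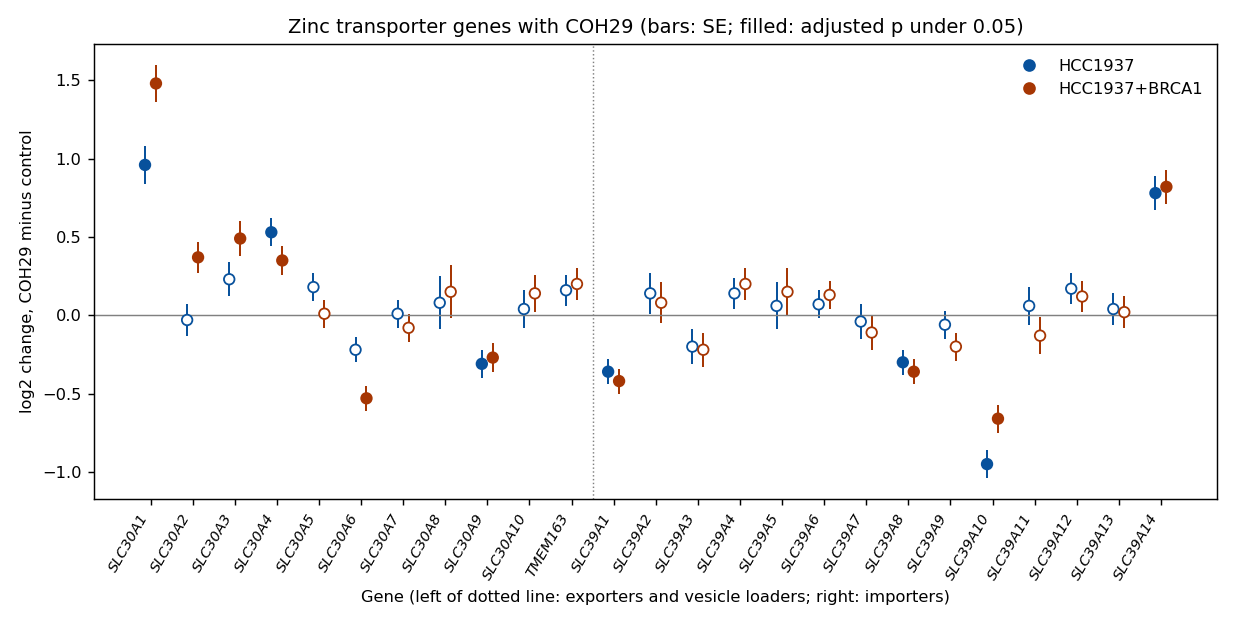
Log2 change with COH29 in HCC1937 and HCC1937+BRCA1 (bars are SE, filled points passed adjusted p under 0.05) for the SLC30 genes and TMEM163, left of the dotted line, and the SLC39 genes, right of it. SLC30A1 (0.96 and 1.48) and SLC39A14 (0.78 and 0.82) lie to the higher side, and SLC39A10 (-0.95 and -0.66) to the lower.

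Genes of the metal and oxidative stress response, of which 10 of 13 listed were measured, passed as higher for 7 genes in HCC1937, for 9 genes in HCC1937+BRCA1, and as lower for 0. Over all genes 10.2% and 13.6% were higher, and 12.5% and 20.1% lower, in these lines. Their median change was 0.58 and 0.77. The heme oxygenase gene HMOX1 rose by 1.19 ± 0.09 and 1.81 ± 0.09, and the cystine transporter gene SLC7A11 by 1.79 ± 0.09 and 2.50 ± 0.09. GCLC, a subunit of the enzyme that starts glutathione synthesis, rose by 0.71 and 0.94, and OSGIN1 by 0.64 and 1.05. Between the untreated lines 3 of the 10 were called higher in HCC1937+BRCA1, namely TXNRD1 (0.81), HMOX1 (0.52) and OSGIN1 (0.32). In the same comparison 4 were called lower, among them GCLC (-0.90 ± 0.08, adjusted p = 3.82e-05) and SLC7A11 (-0.31). Over all genes 16.4% were called higher and 14.8% lower there, and the median difference of the 10 was 0.01. The calls of OSGIN1 and SLC7A11 between the untreated lines were lost without HCC1937 control replicate 1 or 2 or HCC1937+BRCA1 control replicate 2 (adjusted p from 0.0684 to 0.182).

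The genes most like MT1X across the 4 group means, by the root mean square difference after centring among the 2609 genes that spanned at least 1 log2 unit, were the histone gene H3C10 (0.12), ELOVL4 (0.24), INSIG1 (0.25), H4C8 (0.28) and RIC1 (0.28). Among the other members, taken whatever their span, MT1G (0.38) and MT2A (0.39) came nearest to MT1X, and MTF1 (0.87) was the farthest. The distance also grows where changes differ in size, so it does not rank likeness of pattern alone. SLC30A1 was most like RNF19B (0.02), FAM43A (0.05), GADD45A (0.05), HK2 (0.06) and TBX3 (0.08), and lay 0.51 from MT1X. These distances describe 4 group means of 2 arrays each.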

How the data were processed

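The study measured RNA of HCC1937 and HCC1937+BRCA1 with and without COH29 on 8 Affymetrix arrays, 2 per group. Each array's deposited column holds the log2 intensity of 33297 probe sets, and RMA and Partek are named per the submitters' processing notes, without versions. The arrays' sorted values differed by at most 0.297. No genome build is named by the labels. Of the probe sets, 19460 were paired with 1 gene, 1754 with several and 12083 with none, per the platform annotation. Of the single-gene probe sets 19429 matched a RefSeq symbol (GRCh38.p14), and 18417 genes remained, 769 of which had a choice of probe sets.

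Over all 8 arrays, a group-means model was fitted with limma 3.58.1 in R 4.3.3, with moderated tests and Benjamini-Hochberg adjustment over all genes. The script was tested on simulated data. The comparisons were COH29 in either line, the difference between those effects, and the lines without and with COH29. The number of arrays limits the precision. Replicate numbers were not used as pairs in the main fit. Deviations of same-numbered arrays correlated at 0.26 between control and COH29 in HCC1937+BRCA1 and at 0.037 in HCC1937. Across the lines these correlations lay between -0.204 and -0.086. Whether same-numbered arrays were handled together was not tested.

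Named were the members, of each further list up to 4 called genes with the smallest p for COH29, the flanking genes called, and the 5 genes most like MT1X and SLC30A1. MT3, MT4, SLC30A2, TXNRD1, the genes of the probe set left out of the tests and the markers were named outside this rule, after their values were seen. The members and lists were chosen with earlier results of these data known. Alternatives were a filter at the 30th percentile of level, shifted array medians, cyclic loess, a robust variance trend, no moderation, a replicate block, probe sets averaged per gene, all probe sets tested, only the 4 arrays compared, a test against a 1.2-fold change and leaving out each array. A replicate block with crossed numbers was added after seeing the data. Protein identities were not computed.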

Additional observations from a re-analysis of the deposited data

Results flagged for a closer look

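The test of the difference between the COH29 effects called 5 of the genes described, all higher in HCC1937+BRCA1. Over all genes it called 0.543% higher and 0.413% lower. The 5 are listed because they passed, and further list genes were named for a small p with COH29, so their number is not read as a result. The difference (HCC1937+BRCA1 minus HCC1937, log2) was 1.06 for MT1X and 1.05 for MT1F, whose values are given above. It was 1.36 for the phosphatase gene DUSP1 (limma adjusted p = 0.00785), which rose by 0.86 in HCC1937 and 2.22 in HCC1937+BRCA1. The DUSP1 call was kept without each of the 8 arrays in turn (adjusted p from 0.0174 to 0.0463), and lost with no moderation (0.164) and with every probe set tested (0.0997). The difference was 0.71 for SLC7A11 (adjusted p = 0.0473) and 0.76 for HERPUD1 (adjusted p = 0.0401), and both calls were lost when any 1 of the 8 arrays was left out (SLC7A11 from 0.0738 to 0.177, HERPUD1 from 0.0607 to 0.154). Both were also lost with the replicate block (0.0898 and 0.0747), with no moderation (0.18 and 0.177), with every probe set tested (0.212 and 0.191) and against a 1.2-fold change (0.389 and 0.285), and SLC7A11 with arrays shifted to 1 median (0.0705).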

How the results depend on the processing

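Counts of the 9 genes called higher with COH29 in HCC1937 (4) were 2 with cyclic loess, with no moderation, with every probe set tested and against a 1.2-fold change, and 2 to 5 with 1 array left out. For the difference of effects (2) they were 4 with eBayes trend and robust, 0 with no moderation, with every probe set tested and against a 1.2-fold change, and 0 to 2 with 1 array left out. At an unadjusted p under 0.05 the difference passed for MT1X, MT1F, MT1G, MT2A, SLC30A1 and MT1M in the limma fit reported. The share of all genes passing there is not given, so this is not read as a result. Of all genes, 22.7% were called either way in HCC1937, and 22.2% with cyclic loess. That share was 15.3% with no moderation, 14.0% with every probe set and 7.04% against a 1.2-fold change. For the difference it was 0.956%, and 3.07% with trend and robust. It fell to 0.0163% with no moderation or every probe set, and to 0.195% against a 1.2-fold change. The member count is read beside these shares. Between the lines without COH29 (6) it was 3 against a 1.2-fold change and 4 to 6 with 1 array left out. The counts of 7 in HCC1937+BRCA1 and 9 between the treated lines lay within 5 to 7 and 7 to 9 under all alternatives. Fitting only the 4 arrays compared was not run for the difference of effects. The replicate block gave 3, 7, 2, 6 and 9 calls for COH29 in HCC1937, COH29 in HCC1937+BRCA1, the difference of effects, and the lines without and with COH29, and the crossed block 4, 7, 2, 6 and 9, though not for the same genes: there MT2A was gained in HCC1937 and for the difference, and MT1E in HCC1937 and MT1F for the difference were lost. No called direction reversed. MT1X and SLC30A1 in both lines, and MT2A, MT1F and MT1G in HCC1937+BRCA1, kept their calls under every alternative. The cause of the other losses was not tested. No detection p was used, and whether the dim MT1M was above background was not tested.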

Other observations

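Copper handling genes, of which 7 of 8 listed were measured, passed as higher for 3 genes and as lower for 1 in HCC1937. In HCC1937+BRCA1 they passed as higher for 4 and as lower for 1. Over all genes 10.2% were higher and 12.5% lower in HCC1937, and 13.6% and 20.1% in HCC1937+BRCA1, so the 1 lower is near the background. The copper exporter gene ATP7A fell (-0.41 ± 0.10 and -0.75 ± 0.10). The copper transporter genes SLC31A1 (0.33 and 0.59) and SLC31A2 (0.47 and 0.77) and the copper chaperone CCS (0.40 and 0.62) rose in both lines. The 3 called higher in HCC1937 became 0 or 1 without any 1 of its 4 arrays, and the 1 called lower became 0 without control replicate 1, control replicate 2 or COH29 replicate 1.

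Of 7 measured glucocorticoid-responsive genes, 3 passed as higher and 1 as lower in HCC1937. In HCC1937+BRCA1 the numbers were 5 and 1, with 3 higher without its control replicate 1 or COH29 replicate 2. The shares over all genes (10.2% and 12.5%, then 13.6% and 20.1%) leave the 1 lower near the background here too. TSC22D3 rose by 1.02 ± 0.12 and 1.55 ± 0.12 and the clock gene PER1 by 0.76 and 1.32, while the receptor gene NR3C1 fell (-0.31 and -0.61), in HCC1937 a call lost without control replicate 1, control replicate 2 or COH29 replicate 1. Between the untreated lines 1 of the 7 was called higher in HCC1937+BRCA1 (NR3C1, 0.58) and 4 lower, among them TSC22D3 (-1.69 ± 0.12). Over all genes 16.4% were called higher and 14.8% lower in that comparison.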
